A study of Mus musculus with 6 samples.

Results

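The 9 genes described here serve phosphate transport in the kidney and its hormonal control. They are *Slc34a1*, *Slc34a3*, *Slc20a1*, *Slc20a2*, *Xpr1*, *Pdzk1*, *Slc9a3r1*, *Slc9a3* and *Kl*. They were chosen by name, and all 9 were among the 12125 genes listed in the deposited table. All 9 also passed the filter, which asked for 10 normalized counts or more from 3 or more libraries and kept 9966 genes. Libraries were made from 500 kidney cells per mouse, sorted with antibodies against CD29 and the Katushka fluorescent protein (KFP) and labelled as fibroblasts. There were 3 Trf1+/+; Col1a2-CreERT2 mice and 3 Trf1flox/flox; Col1a2-CreERT2 mice, called Trf1+/+ and Trf1flox/flox. Mice of both groups carried KFP behind a stop cassette that Cre removes and a Cre recombinase driven by the *Col1a2* promoter. All had received tamoxifen 3 times a week for 8 weeks, starting at 6 to 8 weeks of age, and the study used males and females. The comparison asks what deletion of *Trf1* in cells with an active *Col1a2* promoter does to their transcripts.

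The kidney filters phosphate freely and takes most of it back in the proximal tubule. The sodium-phosphate cotransporters NaPi-IIa (*Slc34a1*) and NaPi-IIc (*Slc34a3*) do this at the brush border, where the PDZ proteins PDZK1 and NHERF1 (*Slc9a3r1*) hold NaPi-IIa and the sodium-proton exchanger NHE3 (*Slc9a3*). Parathyroid hormone and FGF23 lower phosphate uptake by withdrawing the cotransporters from the membrane. Klotho (*Kl*) is the co-receptor that lets FGF23 act on its receptors, and its transcript is known to be most abundant in the distal convoluted tubule and present in the proximal tubule.

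The libraries held 10263382 to 12248797 reads on the listed genes, and a single read was worth 0.689 to 1.09 normalized counts. *Terf1*, the gene encoding TRF1, stood at 0.891, 253 and 235 normalized counts where the label was Trf1+/+ (replicates 1, 2 and 3), and at 110.0, 7.65 and 12.4 where it was Trf1flox/flox (replicates 1, 2 and 3). A single *Terf1* read was found for Trf1+/+ replicate 1, far fewer than in Trf1+/+ replicates 2 and 3, so it is called the library labelled Trf1+/+ replicate 1. Trf1flox/flox replicate 1, with 128 *Terf1* reads, lay between the other Trf1flox/flox libraries and Trf1+/+ replicates 2 and 3. The library labelled Trf1+/+ replicate 1 also had 18.6% of the tested genes at 0, including *Slc20a1* and *Slc34a3*. Its median gene stood at 13.4 normalized counts, and no other library had a median under 118. *Itgb1*, which encodes the sorting marker CD29, had 5 reads there and 365 to 2094 elsewhere. Whether its low *Terf1* count reflects the genotype or this low detection was not tested. That library had 8967 of the listed genes above 0 and Trf1flox/flox replicate 2 had 9733, against 10937 to 11593 in the other libraries. These libraries with the fewest genes above 0 were also left out together in an alternative fit. The label fibroblasts was checked against 10 marker genes, of which 2 were among the listed genes. How the listed genes were selected is not given, so an unlisted marker, of any cell type, cannot be read as absent. *Col1a2*, whose promoter drives the Cre recombinase, had between 0 and 2 reads in each library, and *Dcn* reached 97.3 normalized counts. Markers of the proximal tubule, the loop of Henle and the distal convoluted tubule were abundant in all 6 libraries. All 16 proximal tubule markers were listed, and their summed level ranged from 23150.1 to 101537 in Trf1+/+ and from 28476 to 133531 in Trf1flox/flox libraries. The 6 markers of the loop of Henle summed to between 43537 and 142019, and the 6 of the distal convoluted tubule to between 26674 and 92499. The 9 collecting duct markers ranged from 848 in Trf1+/+ replicate 3 to 18442 in Trf1flox/flox replicate 1. *Aqp2* among them was at 0 in 3 libraries and at 16844 in Trf1flox/flox replicate 1. The 2 listed markers of pericytes and smooth muscle summed to at most 220.0, the 2 endothelial ones to at most 307 and the 5 immune ones to at most 2574, and 0 of 5 podocyte markers were listed. These RNA samples are therefore called sorted kidney cells here. In such mixtures, fewer cells of a type and less RNA per cell cannot be told apart.

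Per kilobase of exon, 4 of the 9 genes were abundant, *Slc9a3* was intermediate and 4 were sparse. *Slc34a1* had 1145 ± 887 (SD, n = 6) normalized counts per kilobase over all libraries, *Pdzk1* 743 ± 336 (SD, n = 6), *Slc9a3r1* 373 ± 244 (SD, n = 6) and *Kl* 248 ± 76.0 (SD, n = 6). These levels place *Slc34a1* at percentile 96.7 and *Kl* at percentile 87.6 of all listed genes with a length. *Slc9a3* followed with 65.0 ± 33.8 (SD, n = 6) per kilobase. *Slc34a3*, *Slc20a2*, *Slc20a1* and *Xpr1* had 21.7 ± 41.1, 21.4 ± 20.9, 20.4 ± 18.6 and 12.5 ± 9.05 (SD, n = 6) per kilobase. Within this order, the step from *Pdzk1* to *Slc9a3r1*, that from *Kl* to *Slc9a3* and that from *Slc9a3* to *Slc34a3* were larger than the SD of the difference over the 6 libraries, and all 6 libraries showed each of them. The other neighbours did not differ beyond that spread. With exon lengths of the GENCODE basic transcripts, *Kl* (453 per kilobase) stood above *Slc9a3r1* (373), and the order among the 4 sparse genes was *Slc20a2*, *Slc20a1*, *Xpr1* and *Slc34a3*.

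**Figure D1:**
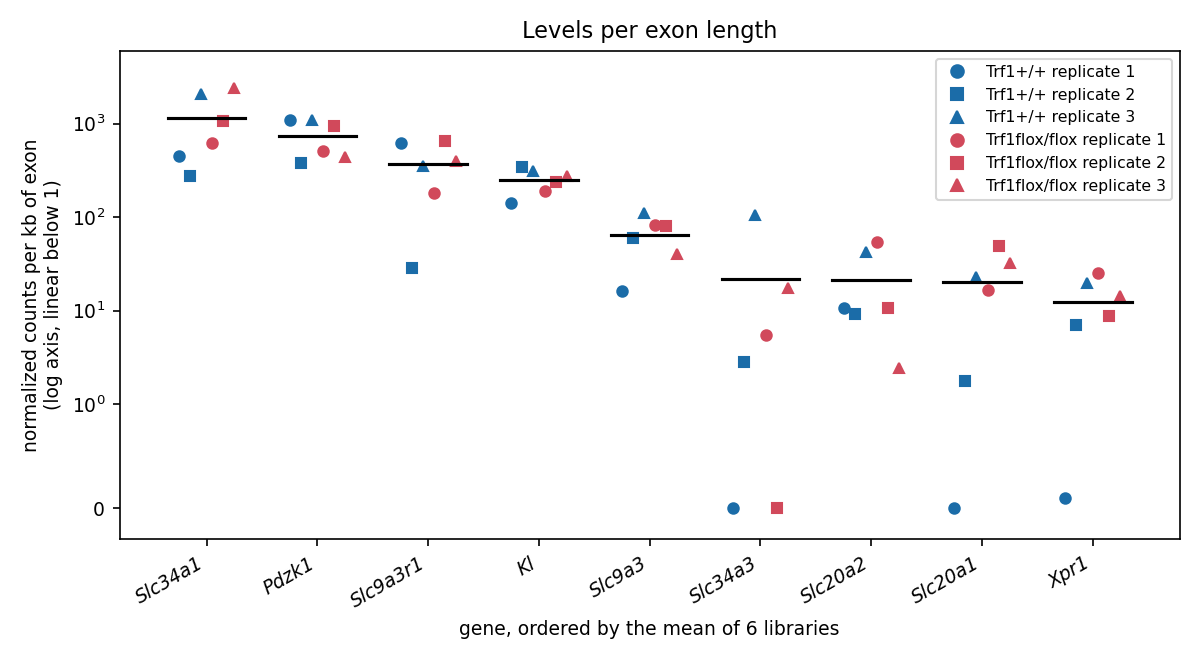
Normalized counts per kilobase of exon (y, log axis that is linear below 1) of the 9 genes (x), with 1 point per library and a black line at the mean of the 6 libraries. *Slc34a1*, *Pdzk1*, *Slc9a3r1* and *Kl* have means between 248 and 1145 per kilobase, and the 4 genes at the right have means of at most 21.7.

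Among the 4 sodium-phosphate importers, *Slc34a1* (ENSMUSG00000021490, chromosome 13, 55398187 to 55415592 on GRCm38, plus strand) dominated every library. It had 2103, 1290.1 and 9708 normalized counts across Trf1+/+ mice, against 2885, 4957 and 11167 across Trf1flox/flox mice. Replicate 3 was the highest library of both groups, and the groups overlapped over most of their range. Of the per kilobase level of the 4 importers together, *Slc34a1* made up between 89.1% and 97.8% in a library. Trf1+/+ mice averaged 4367 ± 4643 (SD, n = 3) and Trf1flox/flox mice 6336 ± 4310 (SD, n = 3). The difference between the genotypes, tested with limma on log2(normalized count + 1) over all 9966 genes, was a log2 fold change of 0.87 (standard error, SE, 1.10; 95% interval -1.82 to 3.56, adjusted p = 0.996). Leaving out Trf1+/+ replicate 2 gave 0.26, leaving out replicate 3 of that group 1.72, and leaving out the library labelled Trf1+/+ replicate 1 gave 0.62.

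*Slc34a3* (ENSMUSG00000006469, chromosome 2, 25228898 to 25234364, minus strand) encodes NaPi-IIc, the second brush border cotransporter. It had 0, 6.63 and 246 normalized counts across Trf1+/+ mice, against 12.9, 0 and 41.3 across Trf1flox/flox mice, which correspond to 0, 8, 250, 15, 0 and 60 reads. Most of its signal thus came from 1 library, Trf1+/+ replicate 3. A count of 0 allows up to 3 reads, which is 2.67 normalized counts in the library labelled Trf1+/+ replicate 1 and 3.28 in Trf1flox/flox replicate 2. The fitted log2 fold change was -0.56 (SE 2.39, 95% interval -6.37 to 5.25), and it was 1.60 without Trf1+/+ replicate 3 and 0.97 without Trf1flox/flox replicate 2. Leaving out the library labelled Trf1+/+ replicate 1 gave -2.37, and the recovered reads gave -2.15 with edgeR and -2.22 with DESeq2.

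*Slc20a1* and *Slc20a2* encode PIT1 and PIT2, sodium-phosphate importers that most cell types carry. *Slc20a1* (ENSMUSG00000027397, chromosome 2, 129198764 to 129211616, plus strand) had 0, 9.94 and 126 normalized counts across Trf1+/+ mice, against 91.9, 272 and 182 across Trf1flox/flox mice. The lowest Trf1flox/flox library lay below the highest Trf1+/+ library, so the groups overlapped, while the other Trf1+/+ libraries held 0 and 12 reads. Its log2 fold change of 3.90 (SE 1.82, 95% interval -0.52 to 8.32) had the smallest unadjusted p of the 9 genes, 0.0744 from limma, and an adjusted p of 0.996. Leaving out the library labelled Trf1+/+ replicate 1 gave 2.16, and edgeR on the recovered reads gave 1.95. *Gm4430*, which shares exonic bases with *Slc20a1* on the other strand, had 475 normalized counts in the library labelled Trf1+/+ replicate 1, and these libraries do not keep strand.

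*Slc20a2* (ENSMUSG00000037656, chromosome 8, 22476788 to 22569612, plus strand) had normalized counts that overlapped widely between the genotypes. The values were 65.9, 57.2 and 260.1 across Trf1+/+ mice, against 333, 65.6 and 15.2 across Trf1flox/flox mice. Trf1flox/flox replicate 1 was the highest and replicate 3 the lowest of all 6 libraries. The log2 fold change was -0.50 (SE 1.36, 95% interval -3.82 to 2.82), and it was 0.08 with edgeR and 0.11 with DESeq2. Per kilobase, *Slc20a1* was below *Slc20a2* in all 3 Trf1+/+ libraries, at 0 to 0.540 of its level, and the ratio was 0.308, 4.62 and 13.4 in the Trf1flox/flox libraries.

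The RefSeq promoter windows of *Slc34a1*, *Slc34a3* and *Slc20a1* differ in CG content, which did not enter the choice of the genes. The 250 bases before the RefSeq start (GRCm38.p6) were matched for 8 of the 9 genes, all but the importer *Slc20a2*. They are shown for the importer with the highest level, for its sparse brush border relative and for a widely expressed importer, 5′ to 3′ on the strand of the gene. Capitals mark each CG dinucleotide. The window of *Slc34a1* lies within the GENCODE bounds of its gene, and those shown for *Slc34a3* and *Slc20a1* overlap theirs in part.
*Slc34a1*, chr13:55399398-55399647, plus strand: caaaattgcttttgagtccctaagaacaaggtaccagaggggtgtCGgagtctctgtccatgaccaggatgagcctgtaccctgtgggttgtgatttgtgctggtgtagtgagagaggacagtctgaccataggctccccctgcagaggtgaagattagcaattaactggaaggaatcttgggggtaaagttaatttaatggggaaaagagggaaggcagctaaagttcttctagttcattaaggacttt
*Slc34a3*, chr2:25234235-25234484, minus strand: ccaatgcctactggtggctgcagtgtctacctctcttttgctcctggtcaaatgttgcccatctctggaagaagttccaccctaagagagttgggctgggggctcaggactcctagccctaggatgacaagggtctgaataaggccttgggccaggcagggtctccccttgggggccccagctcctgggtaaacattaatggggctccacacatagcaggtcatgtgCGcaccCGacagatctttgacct
*Slc20a1*, chr2:129198523-129198772, plus strand: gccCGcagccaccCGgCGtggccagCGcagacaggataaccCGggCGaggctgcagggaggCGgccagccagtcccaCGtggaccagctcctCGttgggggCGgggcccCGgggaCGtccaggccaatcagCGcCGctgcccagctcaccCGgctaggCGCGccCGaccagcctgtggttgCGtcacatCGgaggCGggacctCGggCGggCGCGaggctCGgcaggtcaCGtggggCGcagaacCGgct
*Slc34a1* had 1 CG and *Slc34a3* had 2, and 29.0% of the 32851 promoter windows of this length in the RefSeq table had 2 or fewer. *Slc20a1* had 29 at the start shown, where 6.78% of the windows had as many or more, and 5 at its other RefSeq start. The windows of *Slc9a3r1*, *Slc9a3*, *Kl* and *Xpr1* held 20, 19, 13 and 13, and those at the 2 starts of *Pdzk1* held 4 and 5, where the median over all windows was 6. *Slc34a1* and *Slc34a3*, both with few CG, had means of 1145 and 21.7 normalized counts per kilobase, the latter mostly from Trf1+/+ replicate 3. A relation between CG content and level was not tested.

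*Xpr1* (ENSMUSG00000026469, chromosome 1, 155275701 to 155417415, minus strand) encodes the phosphate exporter of the plasma membrane. It had 1.78, 125 and 351 normalized counts across Trf1+/+ mice, against 448, 156 and 256 across Trf1flox/flox mice. The 2 reads in the library labelled Trf1+/+ replicate 1 set it apart, and the other 5 libraries lay between 125 and 448. Its log2 fold change was 2.40 (SE 1.89, 95% interval -2.20 to 7.01, adjusted p = 0.996 from limma) with that library and 0.32 without it, and edgeR on the recovered reads gave 0.81. The pairing of *Slc20a1* and *Xpr1*, importer and exporter, had a root mean square difference of 1.35 between their centred log2 values.

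The scaffold genes were abundant and overlapped between the genotypes. *Pdzk1* (ENSMUSG00000038298, chromosome 3, 96829284 to 96870926, plus strand) had 3907, 1354 and 3887 normalized counts across Trf1+/+ mice, against 1799, 3341 and 1575 across Trf1flox/flox mice. Both groups thus held libraries near the bottom and near the top of its range. Its log2 fold change was -0.37 (SE 0.87, 95% interval -2.48 to 1.73). *Pdzk1* shares exonic bases with *Gpr89* on the other strand, and *Gpr89* was also at its highest, 2140.4 normalized counts, in the library labelled Trf1+/+ replicate 1. Relative to *Slc34a1*, its partner at the brush border, the per kilobase level of *Pdzk1* ranged from 0.527 to 2.44 in Trf1+/+ and from 0.185 to 0.886 in Trf1flox/flox libraries.

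*Slc9a3r1* (ENSMUSG00000020733, chromosome 11, 115163341 to 115181181, plus strand) encodes NHERF1, which links NaPi-IIa and NHE3 to ezrin. It had 1196, 54.7 and 677 normalized counts across Trf1+/+ mice, against 352, 1264 and 761 across Trf1flox/flox mice. Trf1+/+ replicate 2 was low, and the other 5 libraries overlapped. The log2 fold change was 0.97 (SE 1.38, 95% interval -2.39 to 4.33), and it was -0.37 without Trf1+/+ replicate 2. *Slc9a3* (ENSMUSG00000036123, chromosome 13, 74121457 to 74169442, plus strand) had 88.2, 326 and 611 normalized counts across Trf1+/+ mice, against 454, 447 and 222 across Trf1flox/flox mice. The Trf1flox/flox libraries lay inside the range of the Trf1+/+ libraries. Its log2 fold change was 0.45 (SE 1.01, 95% interval -2.01 to 2.91), and leaving out the library labelled Trf1+/+ replicate 1 gave -0.33.

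*Kl* (ENSMUSG00000058488, chromosome 5, 150952607 to 150993817, plus strand) was the steadiest of the 9 genes. It had 1304, 3204 and 2888 normalized counts across Trf1+/+ mice, against 1759, 2208 and 2537 across Trf1flox/flox mice. The Trf1flox/flox libraries fell inside the Trf1+/+ range, and the highest library had 2.46 times the normalized count of the lowest. The SD of its log2 values within the groups was 0.54, at percentile 8.44 of all tested genes, where the median SD was 2.17. Trf1+/+ mice averaged 2465 ± 1018 (SD, n = 3) and Trf1flox/flox mice 2168 ± 391 (SD, n = 3). The log2 fold change was -0.10 (SE 0.80, 95% interval -2.03 to 1.84, adjusted p = 0.996 from limma), and it was 0.18 after the libraries were scaled to the same upper quartile. An interval of this width includes changes of several fold in either direction.

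**Figure D2:**
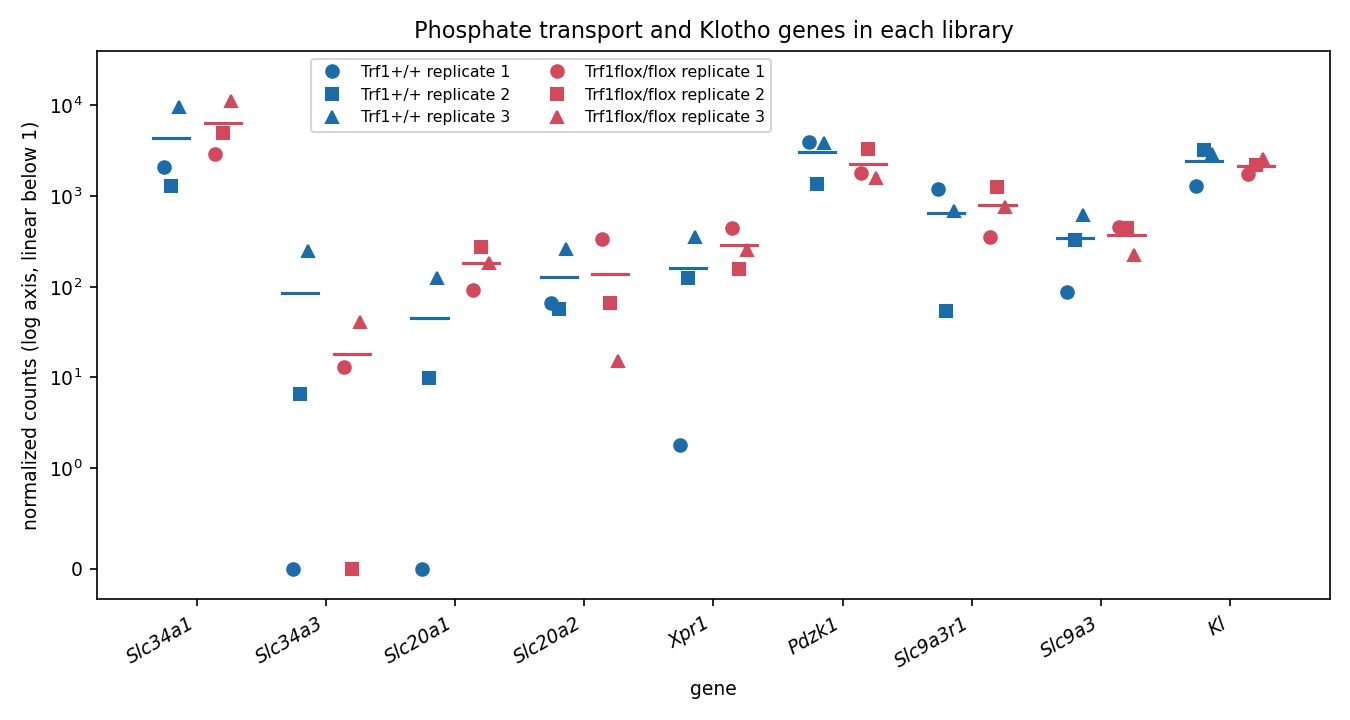
Normalized counts (y, log axis that is linear below 1) of the 9 genes (x) in the 3 Trf1+/+ and 3 Trf1flox/flox libraries, with a line at each group mean. The groups overlap for every gene, and the values at or near 0 belong to *Slc34a3*, *Slc20a1* and *Xpr1*.

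Over the 9 genes, 5 log2 fold changes were above 0, against 55.9% of all tested genes, and 4 below, with a median of 0.45 beside 0.20 over all tested genes. After upper quartile scaling these medians were 0.72 for the 9 genes and 0.45 for all tested genes. The median of the 9 genes was -0.12 without the library labelled Trf1+/+ replicate 1 and 1.44 without Trf1+/+ replicate 3. No median over all tested genes was computed for these fits, so a shift of these genes alone cannot be read from them. None of the 9 genes was called at an adjusted p under 0.05, and over all genes limma called 0% higher and 0% lower in Trf1flox/flox libraries. An unadjusted p under 0.05 was reached by 0 of the 9 genes in limma, against 4.56% of all tested genes. The groups were separate for 0 of the 9 genes, against 8.68% of tested genes, made up of 5.35% with all Trf1flox/flox libraries above and 3.33% with all below. On the recovered reads, edgeR called 0% of the genes (1.97% at an unadjusted p under 0.05) and DESeq2 0.582% (4.11% unadjusted), and neither called any of the 9. With 1 library per mouse, the p-values rest on the spread between 3 mice a group. In limma, the variance of each gene is also drawn towards a value shared by all tested genes. For steady genes such as *Kl*, the SE is therefore larger than their own spread gives.

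Markers of the tubule segments were set beside these genes. For *Slc34a1*, the proximal tubule markers had a median log2 fold change of 0.93, with 14 of 16 above 0 and 0 called. Their summed level was 101537, 23150.1 and 91037 across Trf1+/+ mice, against 28476, 80067 and 133531 across Trf1flox/flox mice. It was lowest and highest in the libraries where *Slc34a1* was lowest and highest, but the order between these ends differed. The sum was higher in the library labelled Trf1+/+ replicate 1 than in Trf1+/+ replicate 3, while *Slc34a1* was lower there (2103 against 9708). In the library labelled Trf1+/+ replicate 1, most of the sum came from *Kap*, an androgen-regulated proximal tubule gene, with 71943 normalized counts. In Trf1flox/flox replicate 3 *Kap* had 68816, also most of the sum, and in Trf1+/+ replicate 3 it had 25834.5. The other proximal tubule markers together were slightly higher in Trf1+/+ replicate 3 than in Trf1flox/flox replicate 3, so the match at the top rested on *Kap*. The distal convoluted tubule markers had log2 fold changes below 0 for 6 of 6 genes, and 4 of the 6 had all Trf1flox/flox libraries below all Trf1+/+ libraries against 3.33% of tested genes. *Slc12a3*, the thiazide-sensitive cotransporter that defines this segment, had 26373, 35066 and 25899 normalized counts across Trf1+/+ mice, against 17956, 14271 and 18752 across Trf1flox/flox mice. *Kl* did not separate in this way. None of these 6 markers was called in limma, and the part of segment composition in the values of the 9 genes was not tested.

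**Figure D3:**
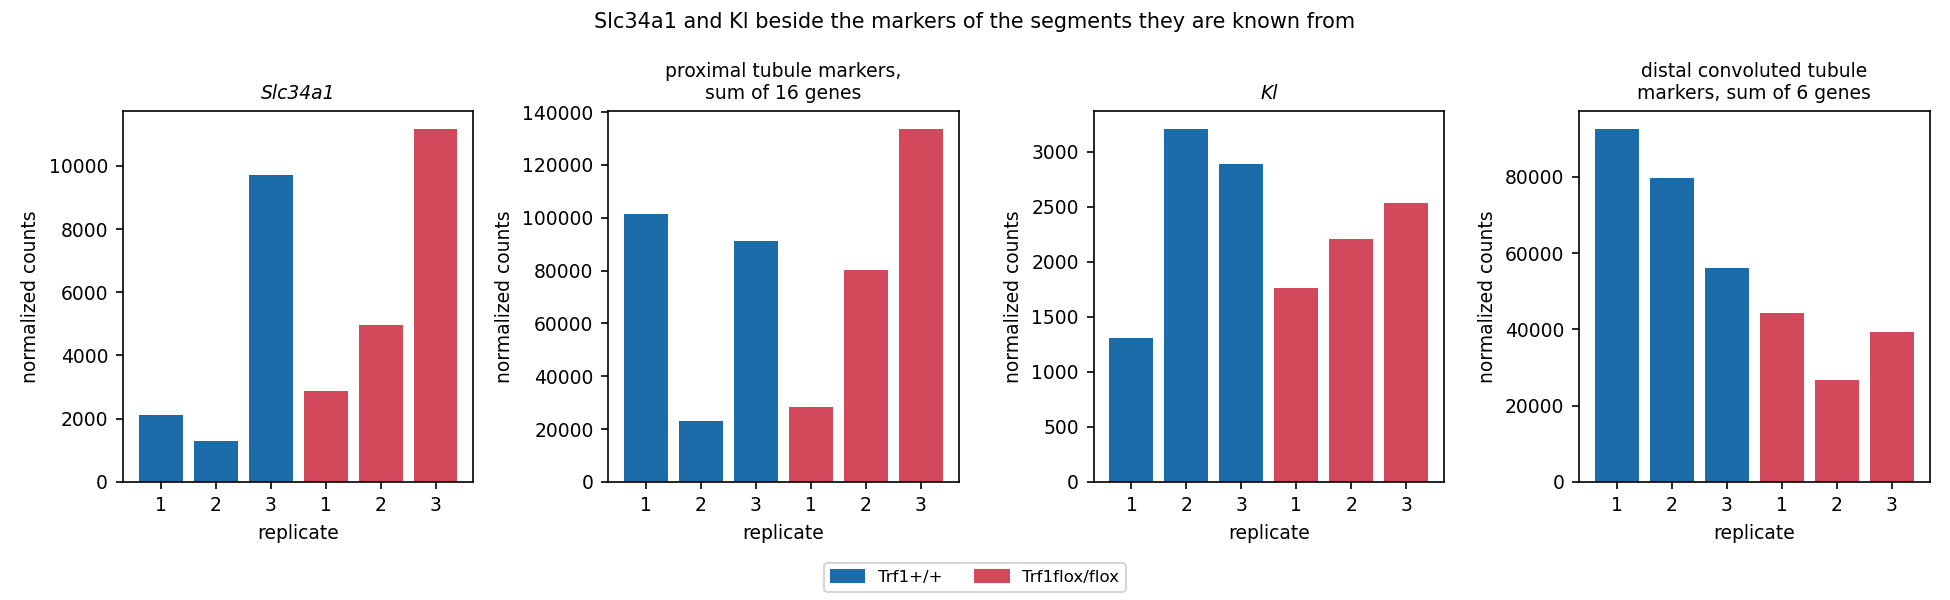
Normalized counts of *Slc34a1*, the sum of 16 proximal tubule markers, *Kl* and the sum of 6 distal convoluted tubule markers (y, each panel with its own scale from 0) in each replicate (x), 1 bar per library. *Slc34a1* and the proximal sum are both highest in Trf1flox/flox replicate 3, where *Kap* alone holds 68816 of the proximal sum. The distal sums are at most 44298 in Trf1flox/flox against at least 56105 in Trf1+/+ libraries.

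Genes alike in pattern to each of the 9 were found by the root mean square difference of centred log2 values over the 6 libraries, a description without a test. For *Slc34a1* these were *Errfi1* (0.32), *Polr3e* (0.35) and *Slc17a1* (0.41), against a median of 2.11 over all tested genes. *Slc17a1* encodes another phosphate transporter of the proximal tubule, and the per kilobase ratio of *Slc34a1* to it lay between 1.04 and 2.01 in all libraries. For *Kl* they were *Slc38a6* (0.08), *Adk* (0.15) and *Cdc42* (0.16). *Pdzk1* was nearest to *Sbds*, *Sec24c* and *Fkbp8* (0.21 to 0.23), *Slc9a3* was close to *Aopep* (0.20) and *Uap1l1* (0.27), and *Slc9a3r1* to *Arih2* (0.34) and *Idh1* (0.36). The sparse genes were nearest to *Zfp949*, *Dgka* and *Smyd5* for *Slc34a3* (0.53 to 0.58), to *Tbc1d9b*, *Gopc* and *Dus2* for *Slc20a1* (0.22 to 0.37), to *Gm5165*, *Gm47355* and *Ewsr1* for *Slc20a2* (0.32 to 0.71), and to *B3gat2*, *Cfap410* and *Shisa5* for *Xpr1* (0.34 to 0.35). Among the 9 genes themselves, *Slc9a3* and *Kl* were the closest pair (0.72) and *Slc34a3* and *Slc9a3r1* the most distant (3.44).

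Of 61 further genes of the pathway, 46 were listed and 41 tested, and none was called. Log2 fold changes were above 0 for 26 and below 0 for 15. An unadjusted p under 0.05 in limma was reached by 3, *Sgk1*, *Fam20c* and *Fgfr2*, against 4.56% of all tested genes. In edgeR it was reached by 1, *Vdr*, against 1.97%. In DESeq2 it was reached by 3, *Sgk1*, *Fam20c* and *Vdr*, against 4.11%. Groups were separate upward for 3 and downward for 2 of the 41, against 5.35% and 3.33%.

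Among the other phosphate transporters, 4 of 6 were listed and 3 tested, with a median log2 fold change of 0.35. *Slc17a1* and *Slc17a3* belong to the organic anion and phosphate transporters of the proximal tubule. *Slc17a1* had 1030.5, 601 and 2449 normalized counts across Trf1+/+ mice, against 834, 1258 and 3004 across Trf1flox/flox mice, which gives a log2 fold change of 0.35 (SE 0.96). *Slc17a3* had 1113, 776 and 1778, and 757, 2541 and 2906, a log2 fold change of 0.62 (SE 0.91). Both overlapped between the groups and were highest in replicate 3 of each, as was *Slc34a1*. *Slc25a3*, which carries phosphate into mitochondria, had 17370.5, 15380 and 8505 across Trf1+/+ mice, against 10956, 10353 and 8847 across Trf1flox/flox mice, which gives a log2 fold change of -0.39 (SE 0.76). *Slc34a2*, the NaPi-IIb cotransporter of intestine and lung, had reads mainly in Trf1+/+ replicate 2 (72.1) and Trf1flox/flox replicate 3 (38.6) and did not pass the filter.

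For the sodium-proton exchangers, 5 of 10 genes were listed and 4 tested. *Slc9a2*, a relative of NHE3, had 239, 364 and 344 normalized counts across Trf1+/+ mice, against 198, 478 and 234 across Trf1flox/flox mice. Its log2 fold change of -0.14 (SE 0.79) stood beside 2.32 (SE 1.91) for *Slc9a8*, an exchanger of endomembranes and the brush border, a value that was 0.27 without the library labelled Trf1+/+ replicate 1 and 3.88 without Trf1+/+ replicate 3. *Slc9a8* had 1.78, 93.6 and 417 across Trf1+/+ mice, against 433, 197 and 158 across Trf1flox/flox mice, and the library labelled Trf1+/+ replicate 1 was again the low one. *Chp1*, a subunit that exchangers need, had a log2 difference of -0.13 (SE 0.85). Per kilobase, *Slc9a3* was at 0.469 to 2.25 times *Slc9a2* in Trf1+/+ and at 1.19 to 2.90 times in Trf1flox/flox libraries.

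All 12 scaffold and apical partners were listed and 11 tested, with 6 log2 fold changes above 0 and 5 below. *Sgk1* encodes a kinase that raises the activity of NHE3. It had 2.67, 0.829 and 61.1 normalized counts across Trf1+/+ mice, against 140.1, 711 and 131 across Trf1flox/flox mice, which did not overlap. This gives a log2 fold change of 4.99 (SE 1.58, unadjusted p = 0.0192, adjusted p = 0.816 from limma). *Dpp4*, a brush border peptidase that associates with NHE3, had a log2 fold change of 2.09 (SE 2.05), which was -0.20 without Trf1+/+ replicate 3. *Gabarap*, which binds NaPi-IIa, and *Myo6*, a motor for its retrieval from the brush border, had log2 fold changes of -0.59 (SE 0.81) and, for *Myo6*, -0.93 (SE 0.90). Their groups overlapped, and without the library labelled Trf1+/+ replicate 1 the values were -0.23 and -0.31. *Myo6* was high, with 7265 normalized counts, in the library labelled Trf1+/+ replicate 1 and lay between 1211 and 2253 in the other 5.

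The hormone pathway had 17 of 24 genes listed and 15 tested, with a median log2 fold change of 0.29. *Pth1r*, the parathyroid hormone receptor, had 2004, 557 and 2241 normalized counts across Trf1+/+ mice, against 845, 1585 and 1194 across Trf1flox/flox mice. The Trf1flox/flox libraries lay within the Trf1+/+ range. Of the receptors that FGF23 uses with Klotho, *Fgfr1* was the one above the filter, with 131, 82.9 and 0.985 across Trf1+/+ mice, against 148, 31.7 and 170.2 across Trf1flox/flox mice. *Fgfr4* did not exceed 35.1 normalized counts, and *Fgfr3* had reads in Trf1flox/flox replicate 3 alone, at 22.1. *Fgfr2*, a receptor for other growth factors, had 341, 232 and 118 across Trf1+/+ mice, against 18.9, 0 and 79.2 across Trf1flox/flox mice. Its groups did not overlap, and the log2 fold change was -4.18 (SE 1.71, unadjusted p = 0.0489, adjusted p = 0.996 from limma). The unadjusted p of *Fgfr2* was 0.250 in edgeR and 0.105 in DESeq2.

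*Fam20c* encodes the Golgi kinase that phosphorylates FGF23. It had 0, 90.3 and 12.8 normalized counts across Trf1+/+ mice, against 221, 801 and 280.5 across Trf1flox/flox mice, without overlap, which gives a log2 fold change of 5.09 (SE 1.75, unadjusted p = 0.0261, adjusted p = 0.924 from limma). *Adcy6*, an adenylyl cyclase downstream of the parathyroid hormone receptor, had a log2 difference of 2.75 (SE 2.25) with overlapping groups. *Cyp24a1*, which inactivates vitamin D, had 125, 0 and 172 across Trf1+/+ mice, against 0.859, 0 and 55.1 across Trf1flox/flox mice, which gives a log2 fold change of -2.57 (SE 2.53). It was -4.97 without Trf1+/+ replicate 2 and -1.25 without Trf1+/+ replicate 3. *Vdr*, the vitamin D receptor, was chosen for mention after its values were seen. It had 2325, 1739 and 1368 across Trf1+/+ mice, against 1061, 682 and 442 across Trf1flox/flox mice, so that all Trf1flox/flox libraries lay below all Trf1+/+ libraries. This corresponds to a log2 fold change of -1.37 (SE 0.79, unadjusted p = 0.133, adjusted p = 0.996 from limma). On the recovered reads its unadjusted p was 0.0301 in edgeR and 0.0319 in DESeq2, with adjusted p of 0.999 and 0.908. Of the 6 distal convoluted tubule markers, 4 had the same order of groups. These markers are known to share that segment with *Vdr*, and their part in this value was not tested.

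XPR1 senses inositol pyrophosphates, and 5 of 6 genes of their synthesis or of XPR1 partners were listed and tested. *Ppip5k1*, *Ppip5k2*, *Ip6k2* and *Ip6k1*, kinases of this pathway, differed by log2 values of 2.27 (SE 1.80), 1.14 (SE 2.59), 0.19 (SE 0.94) and -1.72 (SE 1.63), with overlapping groups. With 1 library left out at a time, *Ppip5k1* ranged from 1.02 (without the library labelled Trf1+/+ replicate 1) to 3.93 (without Trf1+/+ replicate 3). *Ip6k1* ranged from -3.08 (without Trf1flox/flox replicate 1) to -0.23 (without Trf1flox/flox replicate 2). *Kidins220*, whose product binds XPR1, was named after its values were seen. It had 567, 488 and 445 normalized counts across Trf1+/+ mice, against 1034, 910.3 and 787 across Trf1flox/flox mice. All Trf1flox/flox libraries were above all Trf1+/+ libraries, with means of 500.3 ± 61.9 (SD, n = 3) and 910.3 ± 123 (SD, n = 3). The log2 fold change was 0.86 (SE 0.72, unadjusted p = 0.278, adjusted p = 0.996 from limma). The SD of its log2 values within the groups was 0.187, at percentile 0.221 of all tested genes. Its SE is thus larger than its own spread gives, because limma draws the variances of genes together.

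The proteases that release Klotho from the cell surface were all 3 listed and tested. *Adam10* had 0, 4.14 and 176 normalized counts across Trf1+/+ mice, against 192, 62.3 and 367 across Trf1flox/flox mice, which gives a log2 fold change of 4.09 (SE 2.01). *Bace1* had 9.80, 182 and 209, and 132, 755 and 203, a log2 fold change of 1.88 (SE 1.47). *Adam17* had 0.891, 133 and 176, and 66.2, 104 and 121, a log2 fold change of 1.42 (SE 1.87) that was -0.70 without the library labelled Trf1+/+ replicate 1. All 3 overlapped between the groups, and all 3 were lowest in that library, where *Adam10* was at 0. *Kl* had 1464 reads in the same library, its lowest value.

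**Figure D4:**
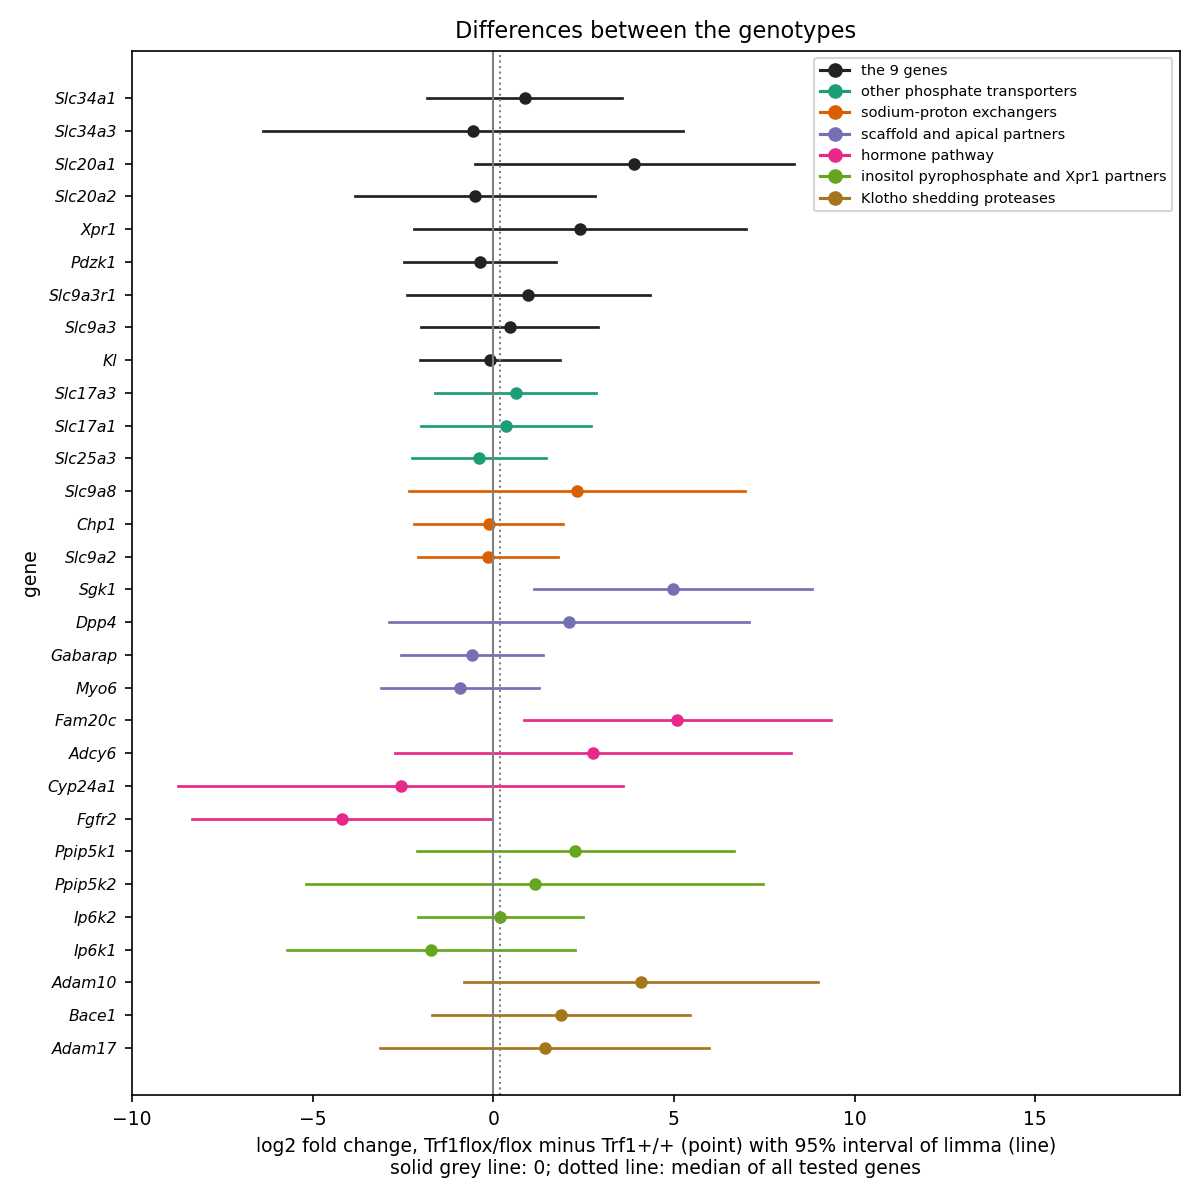
Log2 fold changes on the log2(normalized count + 1) scale, Trf1flox/flox minus Trf1+/+ (x, points), with their 95% intervals from limma (lines), for the 9 genes and for genes of 6 pathway lists with the highest and lowest values (y). The intervals of all 9 genes include 0, and those of *Sgk1*, *Fam20c* and *Fgfr2* do not.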

How the data were processed

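The authors trimmed adaptors and poly(A) tails, aligned them with TopHat 2.0.10 (Bowtie 1.0.0, SAMtools 0.1.19) and counted them on GENCODE vM20 genes with HTSeq 0.6.1. The methods name GRCm38 and the submitters' processing notes GRCm39. The kit does not keep strand, and a stranded setting was given to TopHat. The deposited signal is normalized counts, the reads of each gene divided by 1 size factor per library. All values (100%) were whole multiples of the value of 1 read within 0.02, so reads were recovered. How the 12125 genes were selected is not given in the sources used here. Coordinates and exon lengths came from GENCODE vM21 (GRCm38) and promoters from RefSeq (GRCm38.p6).

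Genes that reached 10 normalized counts in 3 libraries or more were tested with limma 3.58.1 on log2(normalized count + 1), with Benjamini-Hochberg adjustment over all of them. Fold changes are on that scale, and for genes with libraries near 0 they differ in size from those of the read-based fits. Alternatives were other pseudocounts, no filter, upper quartile scaling, a variance trend, edgeR 4.0.16 and DESeq2 1.42.0 on the recovered reads, and libraries left out. Scripts were tested on simulated data. Reads carry no molecular identifiers, so limits for a count of 0 cover counting error only. Replicate numbers follow the order of the records and pair no mice. The 9 genes and all lists were chosen with earlier results of these data known. Named were all 9 genes, the 2 highest and 2 lowest fold changes of each list, the 3 nearest genes in pattern, and others where said. Some genes that this rule selects are not reported here.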

Additional observations from a re-analysis of the deposited data

How the results depend on the processing

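The 9 genes had 0 calls under all alternatives run, as did the 41 other pathway genes, and over all genes the count was 0 except with DESeq2 on the recovered reads, which called 58. The cause was not tested. Log2 fold changes of *Slc34a1* (0.26 to 1.72), *Slc20a1* (1.81 to 5.66), *Xpr1* (0.32 to 3.81) and *Pdzk1* (-0.88 to -0.09) kept their sign over all alternatives run but not their size. With each library left out in turn, log2 fold changes that turned sign ranged from -2.37 to 1.60 for *Slc34a3*, -1.62 to 0.57 for *Slc20a2*, -0.37 to 1.85 for *Slc9a3r1*, -0.33 to 1.06 for *Slc9a3*, -0.50 to 0.14 for *Kl*, -0.70 to 2.58 for *Adam17*, -0.48 to 0.38 for *Chp1*, -0.20 to 3.56 for *Dpp4*, -0.31 to 0.74 for *Ip6k2*, -1.64 to 2.81 for *Ppip5k2*, -0.17 to 0.90 for *Slc17a1* and -0.52 to 0.11 for *Slc9a2*. The range for *Pth1r* was -0.86 to 0.15. *Adcy6* (0.22 to 4.32), *Bace1* (0.48 to 2.62) and *Adam10* (2.45 to 6.19) stayed above 0. *Fam20c* (3.38 to 6.63) and *Sgk1* (3.97 to 6.51) also stayed above 0, and *Fgfr2* (-5.57 to -2.41) stayed below. The groups of *Fam20c*, *Sgk1* and *Fgfr2* did not overlap, so leaving out 1 library could not turn their sign. They were also named for the highest or lowest fold changes of their lists. Upper quartile scaling turned *Kl* (0.18), *Chp1* (0.15), *Slc9a2* (0.13) and *Pth1r* (0.0637). The read-based fits turned *Slc20a2* (0.0757 in edgeR, 0.11 in DESeq2) and *Adam17* (-0.13 and -0.10). Without both the library labelled Trf1+/+ replicate 1 and Trf1flox/flox replicate 2, the values were -0.49 for *Slc9a3*, -0.77 for *Adam17*, -0.18 for *Adcy6*, -0.25 for *Bace1*, 0.16 for *Chp1* and -0.0042 for *Ip6k2*, and -0.53 for *Kl* and -0.71 for *Slc9a2*. With 3 mice a group and a median SD of 2.17 on the log2 scale, changes of several fold were not detectable for most of these genes.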
